A study of Homo sapiens with 8 samples.

Results

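The small Cajal body RNAs (scaRNAs) were followed across HepG2 and LX2 cells with and without CM272. Members were selected on their expression values, as the array's gene symbols that start with SNORA, SNORD or SCARNA and whose log2 value exceeded 4 in both arrays of at least 1 group, with 1 probe set per symbol. The platform annotation used here named 23 such symbols, all of them SCARNA, and 21 met the brightness rule, of 12239 symbols that met it among 14884 in all. No SNORA or SNORD symbol was named there (0 of each), so the nucleolar RNAs, the imprinted families SNORD113 to SNORD116 among them, were not analysed here. Each of the 23 had 1 probe set, and none shared its values with another probe set.

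Total RNA was hybridised to Affymetrix arrays, 2 arrays in each of 4 groups. The groups were HepG2 with CM272, HepG2 control, LX2 with CM272 and LX2 control. HepG2 is a hepatoma (liver tumour) line, and LX2 cells come from hepatic stellate cells, the liver's collagen-forming cells. CM272, which blocks both G9a (EHMT2), a writer of repressive histone methylation, and DNMT1, the maintenance DNA methyltransferase, was given at 400 nM for 48 h, and control cells received 0.1% DMSO for the same time. The medium held 10% serum for HepG2 and 2% for LX2, so line and serum cannot be told apart. Each cell type was represented by 1 line, and no label says that replicate arrays were separate cultures, so each p-value covers only the spread among these arrays, which may be technical.

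scaRNAs are short structured RNAs that stay in the Cajal body, a nuclear compartment where spliceosomal small nuclear RNAs mature. They base-pair with those small nuclear RNAs and direct their chemical modification. Box C/D scaRNAs guide ribose methylation by fibrillarin (FBL), box H/ACA scaRNAs guide pseudouridylation by dyskerin (DKC1), and mixed scaRNAs carry both kinds of element. Most are cut out of introns of host genes, so their supply depends on transcription and splicing of the host as well as on their own stability. Of the 23 symbols 5 are of the box C/D type (SCARNA2, SCARNA7, SCARNA9, SCARNA9L and SCARNA17), 4 are mixed (SCARNA5, SCARNA6, SCARNA10 and SCARNA12) and 14 are of the box H/ACA type, of which 12 met the brightness rule.

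The start of transcription is shown for 3 of these RNAs or their hosts, as RefSeq windows on GRCh38.p14 of 300 bases, from 250 before to 50 after a gene's start. The SNHG22 window (chr18:49813773-49814072, plus strand) is the sole window that runs into an annotated scaRNA, since its last 50 bases are the first 50 of the SCARNA17 interval. NSD2 (chr4:1871143-1871442, plus strand) contains SCARNA22 and CEP295 (chr11:93661432-93661731, plus strand) contains SCARNA9, a pair of scaRNAs that differed between the lines together with their hosts. Capitals mark each CG, the dinucleotide that DNMT1 methylates, which reads the same on both strands.
SNHG22: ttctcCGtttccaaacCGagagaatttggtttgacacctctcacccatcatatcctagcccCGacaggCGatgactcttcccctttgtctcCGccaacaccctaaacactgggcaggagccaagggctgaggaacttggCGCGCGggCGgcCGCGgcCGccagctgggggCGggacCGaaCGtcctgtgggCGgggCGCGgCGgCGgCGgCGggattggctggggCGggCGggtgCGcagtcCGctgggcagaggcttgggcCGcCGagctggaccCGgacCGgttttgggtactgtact
NSD2: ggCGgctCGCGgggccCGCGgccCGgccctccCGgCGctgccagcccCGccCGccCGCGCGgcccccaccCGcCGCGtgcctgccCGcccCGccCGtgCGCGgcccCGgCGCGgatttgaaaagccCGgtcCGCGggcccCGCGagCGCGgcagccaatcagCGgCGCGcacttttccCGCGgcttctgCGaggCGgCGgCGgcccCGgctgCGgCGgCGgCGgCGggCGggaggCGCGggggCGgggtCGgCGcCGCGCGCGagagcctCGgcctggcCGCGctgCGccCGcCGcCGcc
CEP295: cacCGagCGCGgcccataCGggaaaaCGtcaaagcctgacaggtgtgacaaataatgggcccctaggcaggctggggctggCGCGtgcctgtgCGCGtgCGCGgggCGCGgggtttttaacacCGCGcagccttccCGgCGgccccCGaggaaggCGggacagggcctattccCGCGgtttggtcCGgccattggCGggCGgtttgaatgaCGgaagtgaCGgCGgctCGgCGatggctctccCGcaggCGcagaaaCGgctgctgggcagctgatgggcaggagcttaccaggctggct
The windows held 30 CG in SNHG22, 63 in NSD2 and 32 in CEP295, against a median of 14 over 35116 windows of the same length in the RefSeq table. At least as many CG were found in 22.4% of all windows for SNHG22, in 0.0456% for NSD2 and in 18.9% for CEP295. None of the 3 held TATAAA on either strand, a motif that 11.5% of all windows held. These counts describe the sequences, and methylation was not measured.

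**Figure D1:**
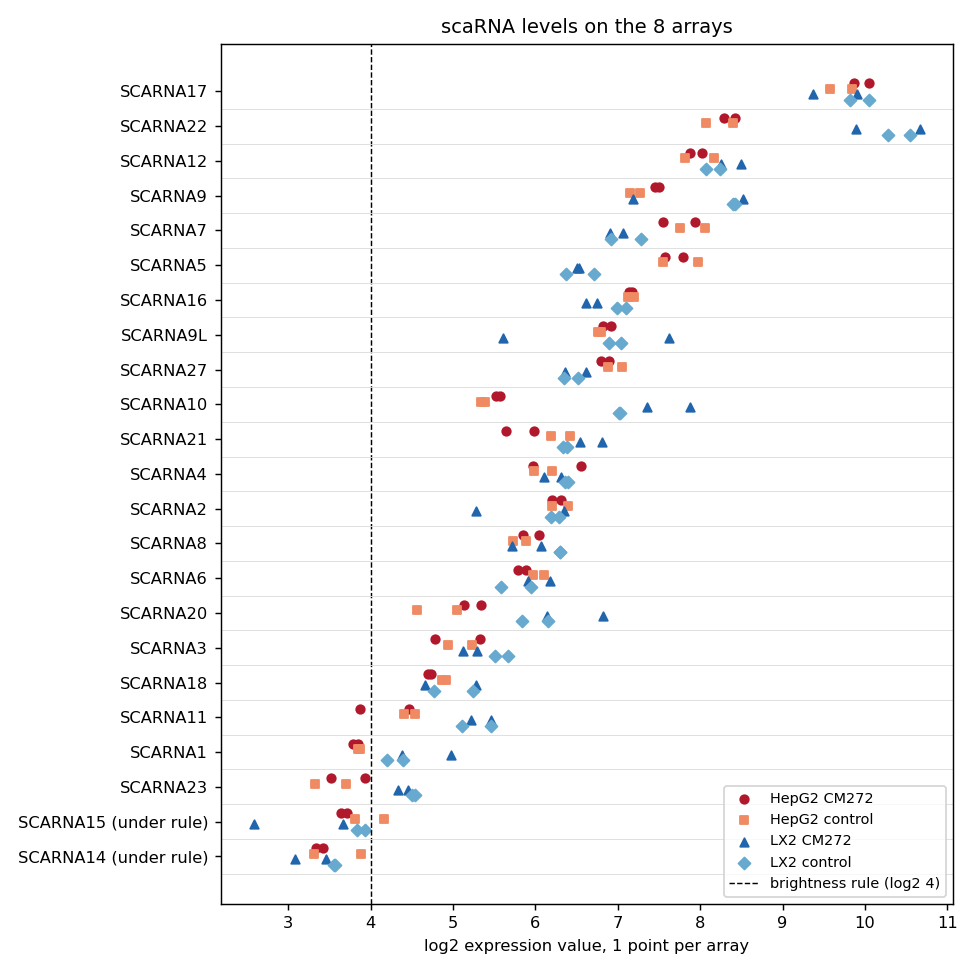
Log2 expression values of the 23 scaRNA symbols, 1 point per array, with 2 arrays in each of the 4 groups and the brightness rule at log2 4 as a dashed line. SCARNA22, SCARNA10, SCARNA20 and SCARNA23 lie lower in the HepG2 arrays than in the LX2 arrays, SCARNA5 and SCARNA7 lie higher, and SCARNA9, SCARNA9L and SCARNA2 each have 1 LX2 CM272 array well below the other.

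Values are RMA log2 expression values as deposited, and each probe set has its own brightness, so a level is compared only with the same scaRNA on other arrays. SCARNA17, SCARNA22, SCARNA12, SCARNA9 and SCARNA7 had the brightest probe sets, which gives no order of abundance. Just inside the brightness rule, the lower array of the best group lay at 4.37 for SCARNA1, 4.50 for SCARNA23, 4.87 for SCARNA18 and 5.22 for SCARNA11. Just outside it were SCARNA15 (3.83) and SCARNA14 (3.56), the 2 symbols set aside. SCARNA1 and SCARNA23 met the rule only through LX2 arrays, so a lower value in HepG2 was favoured by their selection, and counts and medians over the 21 are descriptions.

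The labelled lines carried their markers. All 8 tested hepatocyte markers were higher in HepG2 control than in LX2 control, with albumin (ALB) averaging 13.24 in HepG2 control and 3.59 in LX2 control. Of 4 tested stellate and mesenchymal markers 3 were lower in HepG2 control, with vimentin (VIM) averaging 3.67 in HepG2 control and 10.19 in LX2 control. The collagen markers on that list were not analysed here. With CM272 in LX2, 1 of the 4 stellate markers rose and 1 fell. DES, the intermediate filament desmin, rose by 1.25 (SE 0.28, limma adjusted p = 0.0287, and 0.077 without LX2 CM272 replicate 2), and LOX, a collagen cross-linking enzyme, fell by 1.01 (-1.01, SE 0.15, limma adjusted p = 0.00638). What part these had in the scaRNA values of LX2 was not tested. Of 2 leukocyte markers 1 was higher in HepG2 control and 1 lower, and the 3 tested endothelial markers were lower in HepG2 control. Array medians ran from 4.19 to 4.54, the highest being LX2 CM272 replicate 1.

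LX2 CM272 replicate 1 lay furthest from its partner in 3 box C/D scaRNAs. All 5 box C/D scaRNAs were lower on replicate 1 than on replicate 2, as were 48.1% of all tested genes. Their median difference was -1.08 log2 (range -2.01 to -0.16, the last being SCARNA7). SCARNA9L differed by -2.01, SCARNA9, a guide for the U2 small nuclear RNA, by -1.34, and SCARNA2, another U2 guide, by -1.08. The median difference between these replicates was -0.17 over the 12 box H/ACA scaRNAs, 8 of them lower on replicate 1 (range -0.77 to 0.68). Over the 4 mixed ones it was 0.13 (range -0.52 to 0.27). Across the array, 1.5% of tested genes differed by more than 1 log2 between these replicates, as did 3 of the 21 scaRNAs. None of the 21 did so in the other 3 groups (0 in each), where 0.319% (HepG2 CM272), 0.212% (HepG2 control) and 0.098% (LX2 control) of genes did. SCARNA9 and SCARNA9L are closely related sequences, so their probe sets may read each other's RNA. Which of the LX2 CM272 arrays reflects the drug's effect on these RNAs cannot be told from 2 arrays.

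**Figure D2:**
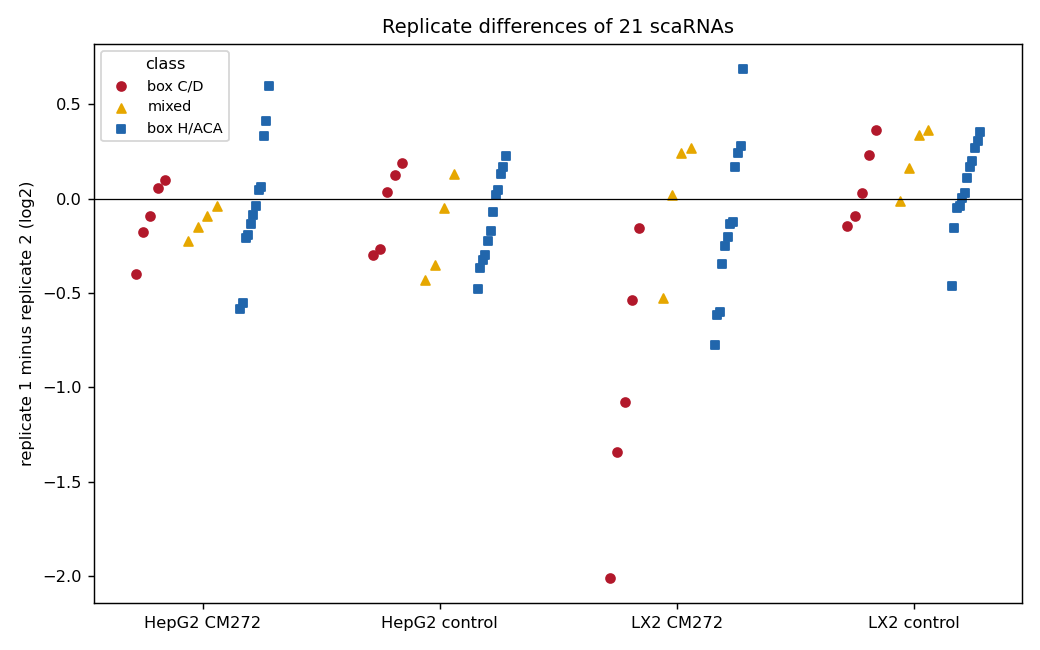
Difference between replicate 1 and replicate 2 in each group, in log2 units, 1 point per scaRNA, by class (5 box C/D, 4 mixed, 12 box H/ACA). All 5 box C/D scaRNAs lie below 0 in LX2 CM272, down to -2.01, as do 8 of the 12 box H/ACA ones, down to -0.77. No scaRNA passes 1 in size in the other 3 groups.

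Which scaRNAs differ between an untreated hepatoma line and an untreated stellate line was asked by comparing HepG2 control with LX2 control. SCARNA22, SCARNA10, SCARNA9, SCARNA20, SCARNA23, SCARNA11 and SCARNA8 were lower in HepG2, and SCARNA5, SCARNA7 and SCARNA27 were higher. The sizes ran from 4.51-fold lower in HepG2 for SCARNA22 to 2.33-fold higher for SCARNA5. In all, 10 of 21 scaRNAs passed limma's test (adjusted p under 0.05 over 12239 genes), 3 higher and 7 lower, or 47.6%, while 58.1% of all tested genes were called, 17.7% higher and 40.5% lower. The scaRNA share lay near that background and is no result about them as a group. Leaving out SCARNA1 and SCARNA23, which met the brightness rule only through LX2, 9 of 19 were called. The median difference was -0.22 over the 21 scaRNAs (-0.18 over the 19 that did not rest on LX2 arrays alone) and -0.27 over all genes. The deposited values carry that shift of all genes, so a difference is read against it. With quantile normalization over the 8 arrays the median of all genes was -0.01, and 55.4% of all genes were called. There 5 scaRNAs were higher and 6 lower, 9 of them among the 10. SCARNA6 and SCARNA16 were called in addition, both higher in HepG2, and SCARNA8 was not called. In bulk RNA, fewer cells with a transcript and less transcript per cell cannot be told apart.

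Of the 12 box H/ACA scaRNAs 5 were called lower in HepG2 and 1 higher, next to 40.5% lower and 17.7% higher over all genes. SCARNA22 (also known as ACA11), an RNA encoded within NSD2 and overexpressed in myelomas that carry an NSD2 translocation, had values of 8.08 and 8.40 in HepG2 control, against 10.54 and 10.28 in LX2 control. The lines were far apart, and the CM272 arrays kept the same order, at 8.29 and 8.43 in HepG2 and 9.89 and 10.67 in LX2. The difference was -2.17 log2 (SE 0.24, 95% confidence interval -2.71 to -1.63, limma adjusted p = 3.77e-05). SCARNA20 (ACA66), which guides modification of the U12 small nuclear RNA of the minor spliceosome, read 4.57 and 5.05 in HepG2 control, against 6.15 and 5.84 in LX2 control. It was 2.28-fold lower in HepG2 (-1.19 log2, SE 0.25, limma adjusted p = 0.00225). SCARNA23 (ACA12), a guide for the U6 small nuclear RNA, had values of 3.33 and 3.70 in HepG2 control, under the brightness rule, against 4.53 and 4.50 in LX2 control. Its difference of -1.01 log2 (SE 0.18, limma adjusted p = 9.68e-04) concerns an RNA that entered the test through LX2, and its fold is not exact.

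Smaller differences marked 3 more box H/ACA scaRNAs. SCARNA11 (ACA57), a U5 guide, read 4.54 and 4.40 in HepG2 control, against 5.46 and 5.11 in LX2 control, a difference of -0.81 log2 (SE 0.21, limma adjusted p = 0.00848). SCARNA8 (U92), a U2 guide, read 5.89 and 5.72 in HepG2 control, against 6.30 and 6.30 in LX2 control, with -0.50 log2 (SE 0.16, limma adjusted p = 0.0234). With quantile normalization SCARNA8 differed by -0.20, with an adjusted p = 0.315, and was not called. SCARNA27 went the other way, with 6.88 and 7.05 in HepG2 control, against 6.52 and 6.35 in LX2 control (0.53 log2, SE 0.15, limma adjusted p = 0.0127). The control arrays of the lines did not overlap for any of these 3, nor for SCARNA16, SCARNA3, SCARNA4 and SCARNA1, which were not called. The share of all genes without overlap was not computed. The other 6 box H/ACA scaRNAs in the test were not called, with differences from -0.50 (SCARNA3, limma adjusted p = 0.0553) to 0.12 (SCARNA16).

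Of the 4 mixed scaRNAs, SCARNA10 was lower in HepG2 and SCARNA5 higher, and the other two were not called. SCARNA10 (U85), which guides both methylation and pseudouridylation of the U5 small nuclear RNA, had values of 5.34 and 5.39 in HepG2 control, against 7.01 and 7.03 in LX2 control. Replicates nearly coincided and the lines did not overlap, with a difference of -1.65 log2 (SE 0.18, 95% confidence interval -2.05 to -1.26, limma adjusted p = 2.81e-05). SCARNA10 was 3.15-fold lower in HepG2. SCARNA5 (U87) had values of 7.54 and 7.98 in HepG2 control, against 6.71 and 6.37 in LX2 control, and was 2.33-fold higher in HepG2 (1.22 log2, SE 0.19, limma adjusted p = 3.30e-04). SCARNA6 (U88), which lies in the same host gene as SCARNA5, read 6.10 and 5.97 in HepG2 control, against 5.95 and 5.58 in LX2 control. It differed by 0.27 log2 (SE 0.17, 95% confidence interval -0.11 to 0.65, limma adjusted p = 0.194) and was not called. With quantile normalization SCARNA6 was called. Whether the pair differed from each other was not tested. SCARNA12 (U89) differed by -0.17 (limma adjusted p = 0.413).

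Among the box C/D scaRNAs 1 was lower in HepG2 and 1 higher. SCARNA9 read 7.27 and 7.15 in HepG2 control, against 8.42 and 8.40 in LX2 control, a difference of -1.20 log2 (SE 0.33, limma adjusted p = 0.0116). That SE takes in the gap between the LX2 CM272 arrays, since all groups share 1 estimate of the spread. SCARNA7 (U90), a guide for the U1 small nuclear RNA, read 7.76 and 8.06 in HepG2 control, against 7.28 and 6.91 in LX2 control, and was 1.76-fold higher (0.81 log2, SE 0.19, limma adjusted p = 0.00513). SCARNA17 (U91), a guide for the U4 small nuclear RNA, differed by -0.22 (limma adjusted p = 0.364), SCARNA2 by 0.06 and SCARNA9L by -0.18. For SCARNA2 the 95% confidence interval ran from -0.58 to 0.69, and for SCARNA9L from -1.26 to 0.90. These intervals, too, take in the gap between the LX2 CM272 arrays. The control arrays lay closer, with SCARNA9L at 6.80 and 6.76 in HepG2 control, against 6.89 and 7.03 in LX2 control. Some calls were lost when 1 control array was left out, a step that also widens the SE. Without LX2 control replicate 1 or replicate 2, SCARNA8 stayed at -0.50 and SCARNA9 read -1.19 and -1.21. In the same order SCARNA7 read 0.99 and 0.63, SCARNA11 -0.64 and -0.99, and SCARNA27 0.62 and 0.45. Without LX2 control replicate 2 or HepG2 control replicate 2, 6 of the 10 calls were left in each case. SCARNA22, SCARNA10, SCARNA20, SCARNA23 and SCARNA5 were the 5 called under all alternatives that tested them, though for SCARNA23 the direction was favoured by its selection through LX2.

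**Figure D3:**
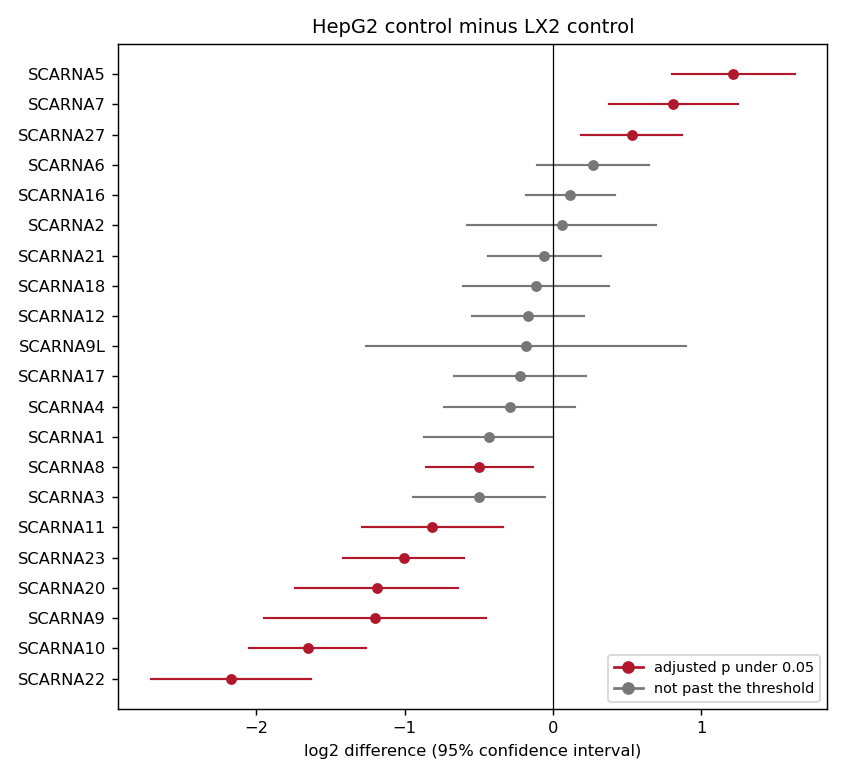
Difference between HepG2 control and LX2 control for 21 scaRNAs, in log2 units with 95% confidence intervals from limma, where values above 0 are higher in HepG2. The 10 red points passed an adjusted p of 0.05, from SCARNA5 at 1.22 to SCARNA22 at -2.17.

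Host genes were set beside their scaRNAs. Of the 21 scaRNAs 20 lie inside the bounds of at least 1 other gene in GRCh38.p14 (strand was not compared), and 11 of these pairs, over 10 hosts, had a host bright enough to test. In the line comparison member and host were both called in 3 pairs, with the same direction in all 3, only the scaRNA in 2, only the host in 5 and neither in 1. Whatever their calls, 10 of the 11 pairs had the same sign. That count takes in small differences, such as SCARNA21 (-0.06), whose host CHD3 lay at -3.33. The share of equal signs among unrelated genes was not computed. With quantile normalization both were called in 6 pairs. NSD2, a histone methyltransferase that contains SCARNA22, averaged lower in HepG2 by -1.22 log2 (SE 0.15, limma adjusted p = 8.44e-05), next to -2.17 for SCARNA22. CEP295, a centriole protein that contains SCARNA9, differed by -1.25 (SE 0.15, limma adjusted p = 7.67e-05), next to -1.20 for SCARNA9. ATG16L1, an autophagy protein that contains SCARNA5 and SCARNA6, was higher in HepG2 by 0.60 (SE 0.16, limma adjusted p = 0.00821), next to 1.22 for SCARNA5 and 0.27 for SCARNA6.

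In other pairs the calls of scaRNA and host differed, and the difference between them was not tested. CHD3, a chromatin remodeller that contains SCARNA21, read 5.11 and 5.67 in HepG2 control, against 8.75 and 8.69 in LX2 control, a difference of -3.33 log2 (SE 0.18, limma adjusted p = 2.78e-07). SCARNA21 read 6.41 and 6.19 in HepG2 control, against 6.34 and 6.39 in LX2 control, which overlap (-0.06, 95% confidence interval -0.44 to 0.32). SNHG20, a non-coding host that contains SCARNA16, was higher in HepG2 by 1.04 (SE 0.14, limma adjusted p = 1.53e-04), next to 0.12 for SCARNA16 (95% confidence interval -0.18 to 0.42). SCARNA16 was called with quantile normalization, so this contrast depends on the normalization. SCARNA11 fell by 0.81 while CHD4, a chromatin remodeller that contains it, differed by 0.21 (limma adjusted p = 0.24). SCARNA7 rose by 0.81 and its host KPNA4, a nuclear import receptor, differed by 0.24 (limma adjusted p = 0.337). An array probe inside a host intron can read unspliced host RNA as well as the mature scaRNA, and the part of each was not tested.

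**Figure D4:**
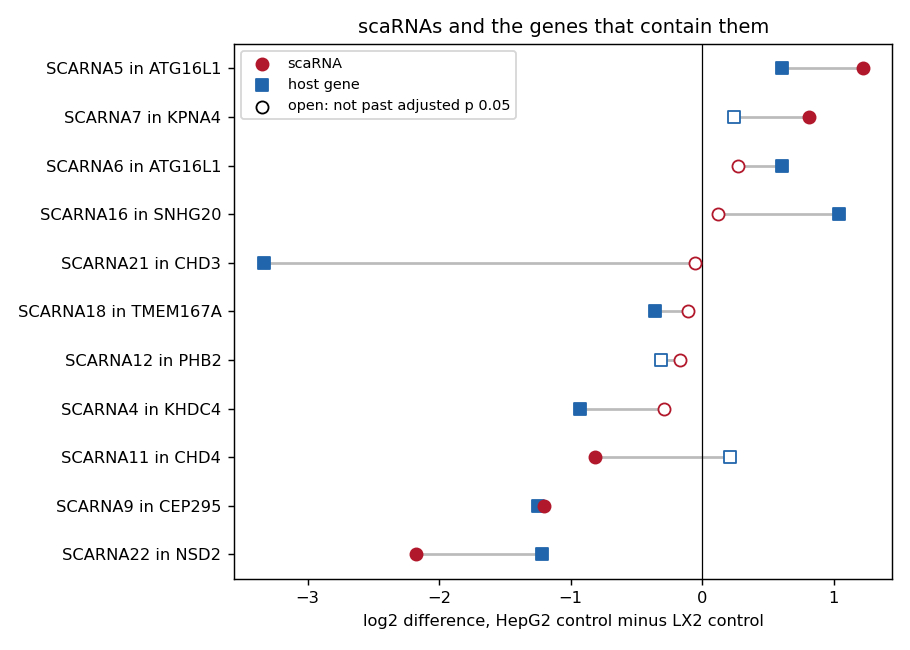
Difference between HepG2 control and LX2 control, in log2 units, for 11 scaRNAs (circles) and the genes that contain them (squares), with filled symbols past an adjusted p of 0.05. The pairs SCARNA22 with NSD2 and SCARNA9 with CEP295 lie on the same side, whereas CHD3 lies at -3.33 and SCARNA21 at -0.06.

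What CM272 does to the scaRNAs of HepG2 was asked by comparing treated with control cells. No scaRNA passed limma's test (0 of 21, against 0.00817% of all genes, 1 of 12239). At an unadjusted p under 0.05 there was 1 scaRNA, next to 11.5% of all genes. The median change was -0.03 over the scaRNAs and -0.02 over all genes, and the changes ran from -0.49 to 0.43. SCARNA21 (ACA68) had values of 5.98 and 5.65 in HepG2 CM272, against 6.41 and 6.19 in HepG2 control. Its treated arrays lay below both control arrays, by 0.49 log2 on average (-0.49, SE 0.17, limma adjusted p = 0.337). SCARNA20 read 5.13 and 5.34 in HepG2 CM272, against 4.57 and 5.05 in HepG2 control (0.43, SE 0.25, limma adjusted p = 0.542). SCARNA11 differed by -0.30 and SCARNA9 by 0.27, with limma adjusted p-values of 0.631 and 0.824. SCARNA22 differed by 0.12 (95% confidence interval -0.42 to 0.66) and SCARNA17 by 0.25 (-0.20 to 0.70). Over the 21, the 95% confidence intervals reached from -0.99 to 1.16, both limits being those of SCARNA9L. Through the shared spread they take in the gap between its LX2 CM272 arrays. In HepG2, SCARNA9L read 6.82 and 6.91 with CM272, against 6.80 and 6.76 in control. For SCARNA9 the SE in HepG2 was 0.33 in the main fit and 0.11 with each line fitted alone.

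In LX2 the same question met the replicate gap described above. Again none passed limma's test (0 of 21, against 8.42% of all genes). An unadjusted p under 0.05 was reached by 3 (SCARNA10 higher, SCARNA8 and SCARNA16 lower), next to 25.3% of all genes. The median change was -0.11 over the scaRNAs and -0.02 over all genes. SCARNA10 had values of 7.36 and 7.88 in LX2 CM272, against 7.01 and 7.03 in LX2 control. Both treated arrays lay above both controls, with a change of 0.60 log2 or 1.51-fold (SE 0.18, 95% confidence interval 0.20 to 0.99, limma adjusted p = 0.0669). It passed with quantile normalization (0.68, adjusted p = 0.0387), with the brightness filter at log2 6 (adjusted p = 0.0345) and with a trended robust prior (adjusted p = 0.0456). In the other alternatives that kept every LX2 and HepG2 array of the fit it did not pass, with an adjusted p up to 0.179. Without LX2 CM272 replicate 1 the SCARNA10 change was 0.86, and without its partner 0.335. In HepG2 the same RNA read 5.53 and 5.57 in HepG2 CM272, against 5.34 and 5.39 in HepG2 control (0.18, SE 0.18, limma adjusted p = 0.764).

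The LX2 changes of SCARNA9, SCARNA2 and SCARNA9L depended on which treated array was used. SCARNA9 read 7.18 and 8.52 in LX2 CM272, against 8.42 and 8.40 in LX2 control, so that 1 treated array lay far below the controls and the other above them. Its change was -0.56 log2 (SE 0.33, limma adjusted p = 0.339) with all arrays. It was 0.11 when LX2 CM272 replicate 1 was left out and -1.23 when its partner was. Either omission takes the gap out of the shared spread, and the SE of SCARNA9 then read 0.13. The lone treated array has no spread of its own. SCARNA2 read 5.27 and 6.35 in LX2 CM272, against 6.19 and 6.28 in LX2 control. Its change of -0.43 (SE 0.28, limma adjusted p = 0.39) became 0.11 and -0.96 on the same omissions. SCARNA9L read 5.61 and 7.62 in LX2 CM272, against 6.89 and 7.03 in LX2 control. Replicate 1 of SCARNA9L thus lay below both controls and replicate 2 above both. Calls made after either omission are not listed here, since they rest on 1 treated array.

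The host of SCARNA9 did not share the gap between the treated arrays. CEP295 read 6.96 and 7.06 in LX2 CM272, against 7.81 and 7.80 in LX2 control, and fell by 0.80 log2 (-0.80, SE 0.15, limma adjusted p = 0.0176). It was the 1 host of 10 called in LX2, next to 8.42% of all genes, and limma called 0 in HepG2, next to 0.00817%. Without LX2 CM272 replicate 1 the CEP295 change was -0.75. SCARNA20 read 6.82 and 6.13 in LX2 CM272, against 6.15 and 5.84 in LX2 control (0.48, SE 0.25, limma adjusted p = 0.256). SCARNA8 read 5.72 and 6.07 in LX2 CM272, against 6.30 and 6.30 in LX2 control (-0.41, SE 0.16, limma adjusted p = 0.149), and SCARNA16 differed by -0.36 (SE 0.13, limma adjusted p = 0.131). SCARNA5 and SCARNA6 differed by -0.03 and 0.28 in LX2, against -0.08 and -0.20 in HepG2, and none of these 4 changes passed. SCARNA22 differed by -0.13 (95% confidence interval -0.67 to 0.41) in LX2.

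**Figure D5:**
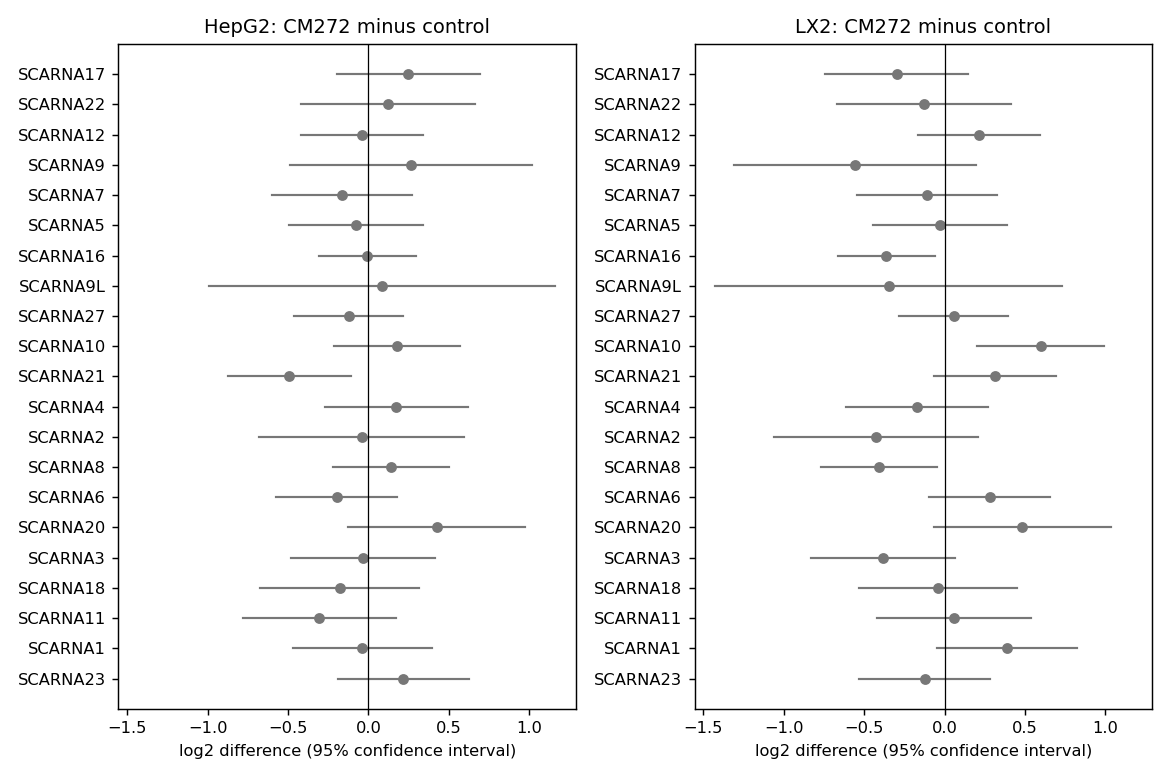
Change with CM272 in HepG2 (left) and in LX2 (right) for 21 scaRNAs in order of mean level, in log2 units with 95% confidence intervals from limma, where values above 0 are higher with CM272. No scaRNA passed an adjusted p of 0.05 in either line (0 of 21), and the interval of SCARNA9L is the widest in both.

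Whether the response to CM272 differed between the lines was tested as an interaction, the HepG2 change less the LX2 change. Limma called no scaRNA (0 of 21, 2 at an unadjusted p under 0.05), against 1.18% of all genes, 0.36% of them higher and 0.825% lower. Over all genes 17.6% reached an unadjusted p under 0.05. The largest differences were 0.82 for SCARNA9 (SE 0.47, limma adjusted p = 0.412), -0.81 for SCARNA21 (SE 0.24, limma adjusted p = 0.127) and 0.55 each for SCARNA8 (limma adjusted p = 0.248) and SCARNA17 (limma adjusted p = 0.355). For SCARNA21 the treated arrays lay below both controls in HepG2, as given above, and above both in LX2, at 6.81 and 6.54 in LX2 CM272, against 6.34 and 6.39 in LX2 control. For SCARNA9 the difference became 0.15 on leaving out LX2 CM272 replicate 1 and 1.49 on leaving out its partner.

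Genes of the scaRNA pathway were mostly not called with CM272. Over 5 lists of 62 genes for box C/D and box H/ACA proteins, assembly factors, Cajal body proteins and small RNA processing, 49 were tested. In LX2 with CM272 1 rose and 4 fell, next to 3.79% higher and 4.63% lower over all genes. ELL, an elongation factor of the little elongation complex that serves small nuclear RNA genes, rose by 0.62 (SE 0.16, limma adjusted p = 0.0426), and ICE2, a subunit of the same complex, fell by 0.998 (-0.998, SE 0.18, limma adjusted p = 0.0155). USPL1, a Cajal body SUMO isopeptidase, fell by 0.77 (limma adjusted p = 0.024), EXOSC8, an exosome subunit, by 0.67 (limma adjusted p = 0.0272), and PARN, a deadenylase that trims H/ACA RNA ends, by 0.63, just inside the threshold of 0.05. Without LX2 CM272 replicate 1 none rose (0) and 2 of the 49 fell, ICE2 among them (-0.72, adjusted p = 0.0309), where 6.62% of all genes were called. Without replicate 2 the ICE2 change was -1.27. Either omission leaves a lone treated array without a spread of its own. In HepG2 with CM272 none of the 49 was called in limma (0, with 9 at an unadjusted p under 0.05). Over all genes 0.00817% were called there, with 11.5% at that unadjusted p. ELL read 5.48 and 5.71 in HepG2 CM272, against 6.48 and 6.46 in HepG2 control, and 7.20 and 6.95 in LX2 CM272, against 6.33 and 6.57 in LX2 control. Its treated arrays lay below the controls in HepG2 and above them in LX2. The responses differed by -1.50 log2 (SE 0.22, limma adjusted p = 0.0194), the 1 call among the 49, next to 1.18% of all genes. Without LX2 CM272 replicate 1 they differed by -1.37.

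The core proteins tested here had no call with CM272 in either line, where 8.42% (LX2) and 0.00817% (HepG2) of all genes were called. FBL, the methyltransferase, differed by -0.17 in HepG2 and 0.01 in LX2, and COIL, the scaffold of the Cajal body, by -0.15 in HepG2 and -0.01 in LX2. All 3 tested box C/D proteins, of 5 listed, and all 3 tested box H/ACA proteins, of 4 listed, were among those not called. Dyskerin (DKC1) was not among the tested genes. Between the control lines, 10 of the 49 were higher in HepG2 and 13 lower, next to 17.7% higher and 40.5% lower over all genes, the share to read the following list counts against. The box C/D core protein NOP58 was higher (1.14, SE 0.18, limma adjusted p = 4.41e-04) and the box H/ACA core protein NHP2 lower (-1.08, SE 0.14, limma adjusted p = 1.10e-04). Among assembly factors RPAP3, a co-chaperone, was lower by 1.63 log2 (-1.63) and SHQ1, a dyskerin chaperone, by 1.17 (-1.17), with 2 of 9 higher and 2 lower. Of 16 Cajal body genes 4 were higher and 5 lower, among them PHAX, a small nuclear RNA export adaptor (-1.47), and ICE1 (-2.12), the scaffold of the little elongation complex. Of 18 processing genes 3 were higher and 5 lower.

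A list of non-coding host genes of small RNAs was followed as well. It takes in SNHG20, the host of SCARNA16 given above, while nucleolar RNAs from these hosts were not analysed here. Of 11 tested non-coding hosts 8 were higher and 2 lower in HepG2 control than in LX2 control, next to 17.7% higher and 40.5% lower over all genes. SNHG8 was higher by 2.28 log2 (SE 0.16, limma adjusted p = 1.77e-06). None was called with CM272 in either line in limma (0, with 2 in LX2 and 0 in HepG2 at an unadjusted p under 0.05). Over all genes 8.42% were called in LX2 and 0.00817% in HepG2, with 25.3% and 11.5% at that unadjusted p. The CM272 counts of the imprinted clusters are to be read against the same shares. In the DLK1 and MEG3 imprinted cluster, which holds SNORD113 and SNORD114, 1 of 4 tested genes rose in LX2 with CM272, namely MEG3, a non-coding RNA (0.58, SE 0.13, limma adjusted p = 0.0315, and 0.0569 without LX2 CM272 replicate 1), and between the control lines 1 was higher and 3 lower in HepG2. In the SNRPN cluster, which holds SNORD115 and SNORD116, 5 genes were tested, namely MKRN3, MAGEL2, PWAR1, PWRN1 and UBE3A. SNRPN itself was not among them. None of the 5 was called with CM272 in limma (0, with 1 at an unadjusted p under 0.05 in each line). MKRN3 was higher in HepG2 control (0.83, SE 0.19, limma adjusted p = 0.00388).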

How the data were processed

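Log2 expression values were used as deposited. The authors made them with RMA, per the submitters' processing notes, version and genome build not given in the sources used here. RMA compresses changes of dim probe sets, and array medians were not equal, so the deposited columns do not share 1 distribution. Of 48416 probe sets 16098 had 1 symbol in GEO's platform annotation, giving 14884 symbols, each by its probe set of highest mean, and 12239 exceeded log2 4 in both arrays of a group.

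limma 3.58.1 in R 4.3.3 fitted a mean per group over the 8 arrays (4 residual and 5.47 prior degrees of freedom), two-sided, with Benjamini-Hochberg adjustment over 12239 genes. An exact permutation test of 2 arrays against 2 cannot go below p = 0.333. The fit was tried on simulated data in which every array had the median spread of HepG2 control. That check does not cover the wider spread of LX2 CM272. scaRNA classes and roles are textbook background. Named scaRNAs were the largest changes per comparison, the highest means and those nearest the brightness rule. The members and lists were chosen with earlier results of these data known. Pathway, host and marker lists held 136 genes in 12 lists. Host genes came from RefSeq bounds on GRCh38.p14. The 17 alternative fits changed normalization, filter, probe choice, prior, weights, samples or block. Arrays give no counts, and their number limits precision. Figures were drawn with matplotlib 3.10.9.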

Additional observations from a re-analysis of the deposited data

Results flagged for a closer look

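Among the genes listed beside the scaRNAs, 2 had a response to CM272 that differed between the lines by the interaction test. For ELL the HepG2 change less the LX2 change was -1.50 log2 (SE 0.22, limma adjusted p = 0.0194), with -0.87 in HepG2 and 0.62 in LX2. For the stellate marker LOX it was 1.17 log2 (SE 0.21, limma adjusted p = 0.0367), with 0.16 in HepG2 and -1.01 in LX2. Both arrays of each treated group lay on the stated side of their controls. No scaRNA met that test (0 of 21), and groups of 2 arrays were too small for a search for outlying arrays.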

How the results depend on the processing

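In HepG2 with CM272 0 scaRNAs were called in limma under all 16 alternatives. In LX2 with CM272, where 0 of 21 were called, 1 was called with quantile normalization, 1 with the filter at log2 6 and 1 with a trended robust prior (SCARNA10 in each), and 0 to 5 when single arrays were left out. The LX2 median ran from -0.19 to 0.11 over those omissions. Calls made without 1 LX2 CM272 array rest on a lone treated array, with the replicate gap taken out of the shared spread. SCARNA9 (-1.23 to 0.11) and SCARNA2 (-0.96 to 0.11) changed sign in LX2 without LX2 CM272 replicate 1, and the cause was not tested. The difference in response between lines gave 0 to 3 calls when single arrays were left out, with a median of -0.13 to 0.18, and a median of 0.25 over the 15 scaRNAs past the filter at log2 6.

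Between the control lines, 10 calls became 6 to 11 when single arrays were left out, the lone array then being assumed to vary like the other groups. The median was 0.0032 with quantile normalization, which removes the shift of all genes. Pairs with both scaRNA and host called numbered 3, 6 with quantile normalization and 1 to 3 when single arrays were left out. For the 10 called scaRNAs, 136 of 148 alternative values kept the call, 12 lost it and 0 changed sign.

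Replicate numbers were shared between groups. Deviations of same-numbered arrays correlated at 0.08 in LX2 and 0.07 in HepG2 across genes, so the numbers were not taken to pair the samples. With the replicate block, 0 scaRNAs were called with CM272 in LX2, 0 in HepG2, 0 for the difference between lines and 11 between the control lines. For changes that were not called, the 95% confidence intervals give the sizes left possible by 2 arrays a group and a shared spread.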

Other observations

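TERC, the telomerase RNA, carries a box H/ACA domain and passes through Cajal bodies, but it is no scaRNA by name and was chosen after its values were seen. It read 7.11 and 7.30 in HepG2 control, against 4.22 and 4.28 in LX2 control, and was 7.74-fold higher in HepG2 (2.95 log2, SE 0.24, limma adjusted p = 4.20e-06). With CM272, TERC differed by -0.08 in HepG2 and by -0.10 in LX2, and neither change passed (limma adjusted p = 0.936 and 0.846). RMRP, the RNA of the nucleolar RNase MRP, differed by -0.48 between the control lines (limma adjusted p = 0.138), and RPPH1, the RNA of RNase P, by -0.71 (limma adjusted p = 0.0091), both also chosen after their values were seen.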
